A study of Rattus norvegicus with 2 samples.

Results

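The genes described here are 7 contractile and actin-linked genes, Acta2, Myl9, Tpm1, Tpm2, Cald1, Flna and Vcl, followed through the cell types of a rat facial suture, the zygomatic maxillary one, in which fibrous tissue joins cheek bone to upper jaw. They were chosen by name, and all 7 were listed in both libraries, out of 22154 genes listed in either. Each gene was read in mural, fibroblast, endothelial, osteoblast and erythroid cells and in the remaining cells of each library.

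The distraction library (DO) came from sutures of 4-week-old rats that carried a W-shaped distractor of 0.4 mm nickel-titanium wire, calibrated to an initial force of 20 g, for 7 days. The sham library (SC) came from 4-week-old rats whose bone was drilled without a distractor, sampled at 7 days. Rats of both groups were anaesthetised with chloral hydrate, and part of the masseter and temporal muscles was separated from the bone. Each group has 1 library of single cells, the labels give no number of animals for it, and the tissue was crushed into a suspension without a step that selects a cell type. There is therefore no replicate and no test between the groups, and every interval below is a 95% interval for counting error alone.

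Smooth muscle cells, pericytes and myofibroblasts contract by pulling myosin along actin filaments. Acta2 encodes smooth muscle alpha-actin, and Myl9 encodes a regulatory light chain of smooth muscle and non-muscle myosin II. Tropomyosins (Tpm1, Tpm2) lie along the actin filament and caldesmon (Cald1) binds both, and together they govern the access of myosin. Filamin A (Flna) cross-links actin filaments and ties them to integrins, and vinculin (Vcl) joins actin to focal adhesions and cell junctions. Many genes of this kind are targets of serum response factor, whose site is the CArG box. Several of these proteins also serve outside the vessel wall, in platelets and their parent megakaryocytes, in the membrane skeleton of red cells and in migrating leukocytes.

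The promoter of Acta2 is shown because serum response factor acts through CArG boxes near the start of this gene. In RefSeq's GRCr8 table of promoters, which reach from 250 bases before to 50 bases after a start site, 6 of the 7 genes were found with 7 promoters, Cald1 having more than 1, and Myl9 had no entry. The search was for CC, 6 bases that are A or T, and GG, on both strands. None of the 7 promoters held the exact box, which occurred in 1.64% of all 33469 promoters of the same length. With 1 of the 6 central bases allowed to be C or G, a rule added after the exact search, Acta2 was the 1 of 7 promoters with a match, against 9.42% of all promoters. Its matches began 134 and 84 bases before the start site and are in capitals in this 150-base stretch at chr1:241172504-241172653 of GRCr8, minus strand, given 5′ to 3′.
Acta2: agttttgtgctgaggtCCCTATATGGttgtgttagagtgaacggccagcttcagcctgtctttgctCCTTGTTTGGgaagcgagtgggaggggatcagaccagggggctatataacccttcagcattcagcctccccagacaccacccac
A match of letters is a description and not a measured binding site.

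After filtering, DO held 4037 cells with 31202493 molecules (UMIs) and a median of 4161 UMIs per cell, and SC held 5183 cells with 29488955 molecules and a median of 3033. A cell entered a gate when it held at least 3 markers of a class, and none of the 7 genes was a marker. Most cells of both libraries were blood-forming or immune cells: the neutrophil gate took 26.1% of DO cells and 11.4% of SC cells, and the B gate took 32.2% of DO cells and 54.7% of SC cells. The mural gate held 7 DO cells and 6 SC cells, with Rgs5 in all of them. Other mural markers were sparser: Cspg4 was in 1 DO cell and 4 SC cells, and Higd1b in 1 of each. Ebf2 was in 3 DO cells and 0 SC cells. The fibroblast gate held 60 DO cells and 23 SC cells, with Col3a1 in 60 of the 60 and 22 of the 23, at a median of 11759.5 UMIs in DO and 8179 UMIs in SC. The fibroblast markers Pi16 and Clec3b were each in 4 of the 60 DO cells and 2 of the 23 SC cells. The endothelial gate held 36 DO cells and 24 SC cells, and the osteoblast gate 12 DO cells and 23 SC cells, in which Bglap was present throughout and Sp7 was at 0 in both libraries. The erythroid gate held 413 DO cells and 305 SC cells, and the megakaryocyte gate 18 DO cells and 13 SC cells. Cells with at least 3 markers of a second class, called mixed cells below, numbered 4 of 7 in the DO mural gate and 0 of 6 in the SC mural gate. In the fibroblast gate they numbered 15 of 60 in DO and 5 of 23 in SC. The libraries shared 19 cell indices among the kept cells, of which 1 lay in the mural, fibroblast, endothelial or osteoblast gates. Levels are given in CPM, the counts of a gene scaled to the same total of molecules in every gate.

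**Figure D1:**
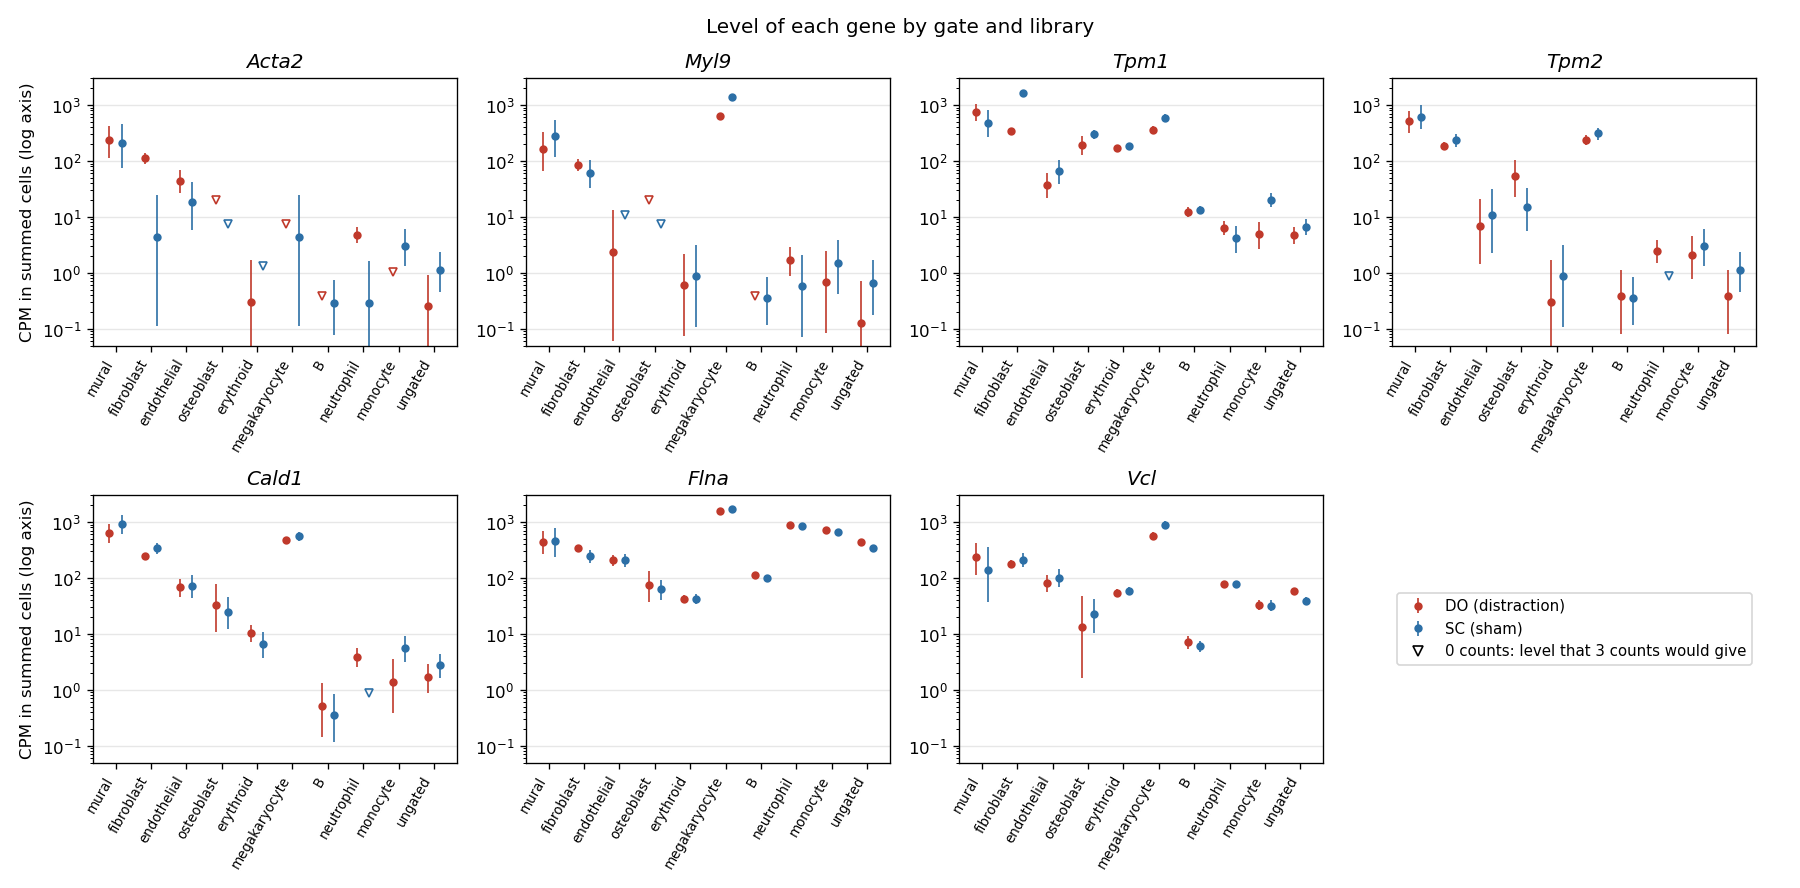
Level of each gene in the summed cells of each gate, in CPM on a log axis, for DO (red, left) and SC (blue, right), with exact 95% Poisson intervals; open triangles mark 0 counts and stand at the level that 3 counts would give. Acta2 stands at 111 CPM in DO fibroblast cells and 4.36 CPM in SC fibroblast cells, and Myl9 is highest in the megakaryocyte gate of both libraries.

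Acta2 was the gene of the list that differed most between the libraries in the fibroblast gate. It had 87 counts in 60 DO fibroblast cells and 1 count in 23 SC fibroblast cells, or 111 CPM (89.0 to 137) in DO and 4.36 CPM (0.11 to 24.3) in SC. The level was 25.5-fold higher in DO, with an interval of 4.45 to 1018 that is wide because it rests on a single SC count. Among genes with at least 10 counts over both libraries, a call of higher or lower needs a ratio of 1.5 or more with an interval that leaves out 1. By that rule 1 of the 7 genes was called higher in DO fibroblast cells (Acta2) and 1 lower (Tpm1), against 7.72% of 7011 genes called higher and 7.03% called lower. The median log2 ratio of the 7 genes was -0.25 and that of all genes compared was 0.10.

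The Acta2 molecules of the DO fibroblast gate sat in few cells. It was present in 17 of 60 DO cells and in 1 of 23 SC cells. After every cell was thinned to 2000 UMIs, it was present in 10 of 58 DO cells (17.2%) and in 1 of 22 SC cells (4.55%). The highest DO cell held 25 of the 87 counts and the next 18. Without the highest cell, 62 counts remained in DO and 0 in SC. The log2 ratio was then 2.56 with 3 counts in place of 0. Without mixed cells there were 72 counts in DO and 1 in SC, a log2 ratio of 4.24. At 2000 UMIs per cell the counts were 13 in DO and 1 in SC, and Acta2 was no longer called. As a background for cells not expected to make smooth muscle actin, Acta2 was present in 0 of 1300 DO cells and in 4 of 2835 SC cells of the B gate, whose median depths were 3412.5 and 2866 UMIs.

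Mural markers were also read in these cells. Of the 17 DO fibroblast cells with Acta2, 12 held at least 1 of the 10 listed mural markers, against 20 of the 43 DO fibroblast cells without it, and 5 of the 17 were mixed cells. The 17 cells held a median of 5 of the other 6 genes and the 43 cells a median of 4, at median depths of 10537 and 12329 UMIs. The part of the mural markers in the Acta2 difference was not tested.

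In the mural gate itself, where smooth muscle actin is a usual product of smooth muscle cells and some pericytes, Acta2 had 10 counts in DO and 6 in SC, or 233 CPM (112 to 428) in DO and 208 CPM (76.3 to 452) in SC. In DO 9 of the 10 counts lay in 1 mixed cell, and in SC 3 of 6 cells held it. The ratio was 1.12 (0.37 to 3.75), an interval that reaches from 2.71-fold lower to 3.75-fold higher in DO. Without mixed cells, 3 DO cells were left, with 1 Acta2 count against 6 in SC. The endothelial gate had 19 counts in DO, 17 of them in 1 cell, and 5 counts in SC, with a ratio of 2.44 (0.88 to 8.37). No Acta2 count was seen in osteoblast cells, which allows up to 20.1 CPM in DO and 7.53 CPM in SC. In the erythroid gate there was 1 count in DO and 0 in SC.

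The neutrophil gate had 37 Acta2 counts in DO and 1 in SC and was called higher in DO (16.2-fold, 2.73 to 657). However, 32 of the 37 counts lay in a single cell of 29725 UMIs that held 7 neutrophil markers and 6 fibroblast markers. The same cell held 13 of the 19 Tpm2 counts and 22 of the 30 Cald1 counts of the DO neutrophil gate. Tpm2 and Cald1 had 0 counts in SC neutrophil cells and were called higher in DO. Their intervals began at 2.04-fold for Tpm2 and 3.34-fold for Cald1. These 3 of the 7 genes were called higher among neutrophil cells, against 4.38% of 10425 genes. Without the highest cell of each gene, all 3 fell under the 10 counts needed and were not compared.

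**Figure D2:**
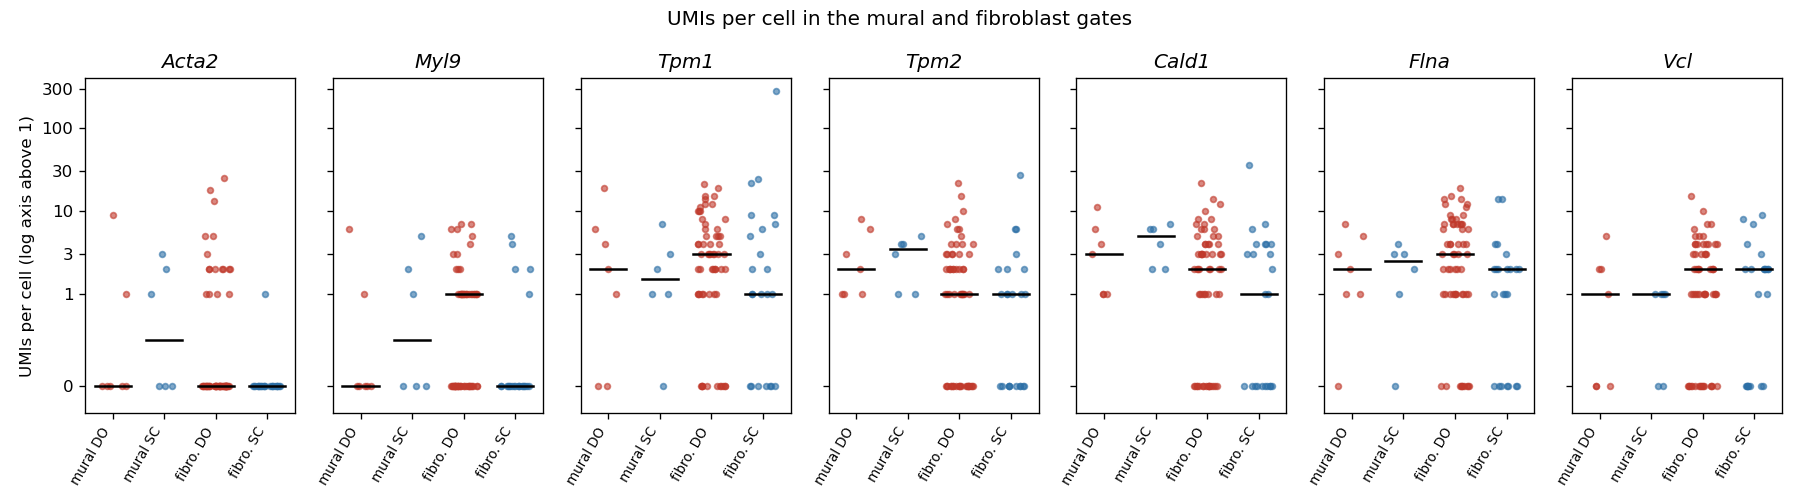
UMIs per cell of each gene in the mural and fibroblast gates, DO in red and SC in blue, on an axis that is linear up to 1 and logarithmic above it; each point is a cell and the black lines are medians. The highest DO fibroblast cells hold 25 and 18 Acta2 UMIs against a single UMI in 1 SC cell, and 1 SC fibroblast cell holds 284 Tpm1 UMIs.

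Most Myl9 molecules lay in the megakaryocyte gate. The megakaryocyte gate held 265 of 358 Myl9 counts in DO (74.0%) and 309 of 348 in SC (88.8%), although it contributed 1.31% of all molecules in DO and 0.765% in SC. Its level there was 650 CPM (574 to 733) in DO and 1370 CPM (1222 to 1532) in SC. It was 2.11-fold lower in DO (1.78 to 2.49) as summed, with 95 of the DO counts in 1 cell and 135 of the SC counts in 1 cell. The call ended at equal depth, with a log2 ratio of -0.21 at 2000 UMIs per cell (36 counts in DO and 30 in SC) and -0.49 at 4000 UMIs. In the fibroblast gate Myl9 had 67 counts in DO and 14 in SC, or 85.6 CPM (66.3 to 109) in DO and 61.1 CPM (33.4 to 102) in SC, and the ratio of 1.40 (0.78 to 2.70) did not pass the rule. The mural gate had 7 counts in DO and 8 in SC. Endothelial cells had 1 count in DO and 0 in SC, and osteoblast cells had 0 in both. After megakaryocytes, the Myl9 level was highest in mural and then in fibroblast cells, which did not differ by the rule in DO.

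Over the summed cells of the whole library Myl9 was at 11.5 CPM in DO and 11.8 CPM in SC (ratio 0.97, 0.84 to 1.13). Its sources differed, with 18.7% of the DO molecules and 4.02% of the SC molecules in the fibroblast gate. The gates named here were 1.49% of DO cells and 0.444% of SC cells for fibroblasts, and 0.446% of DO cells and 0.251% of SC cells for megakaryocytes.

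**Figure D3:**
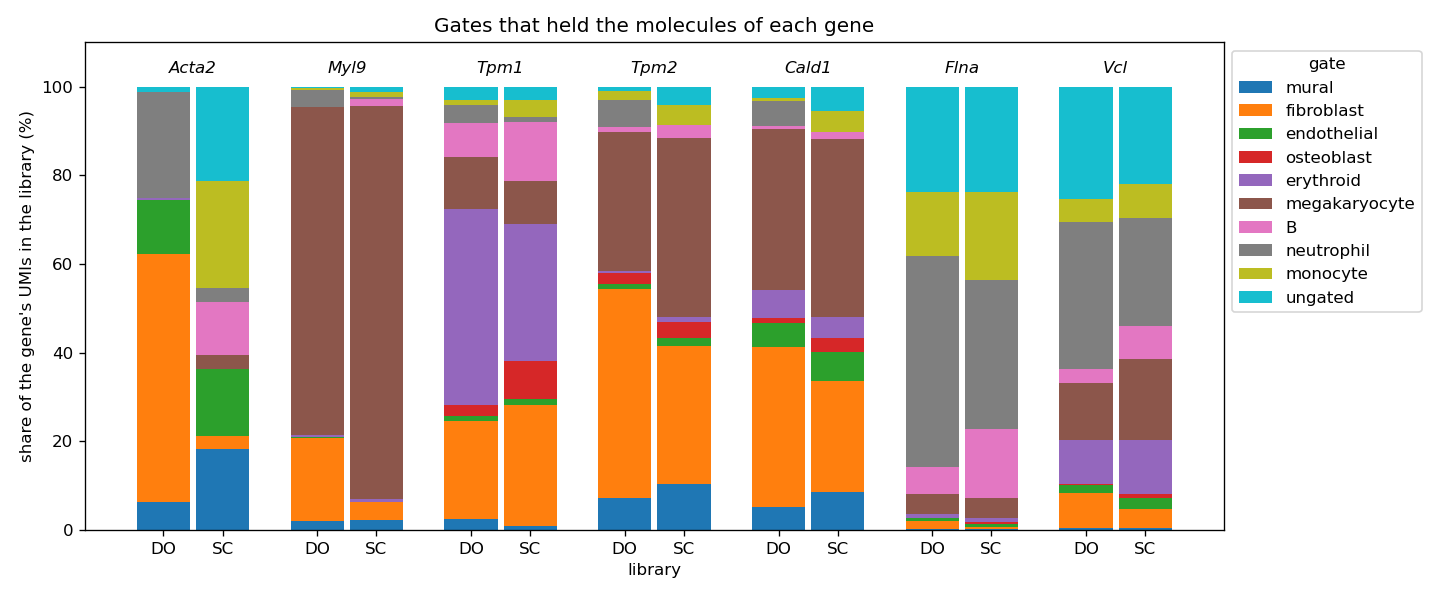
Share of each gene's UMIs held by each gate, in percent of the gene's UMIs in a library, DO left and SC right of each pair. The fibroblast gate holds 55.8% of Acta2 in DO and 3.03% in SC, the megakaryocyte gate most of Myl9, and the neutrophil gate 47.5% of Flna in DO and 33.5% in SC.

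Tpm1 had the widest range of cell types among the tropomyosin and caldesmon genes. The erythroid gate, whose cells use tropomyosin in the short actin filaments of the red cell membrane, held 549 of 1239 Tpm1 counts in DO (44.3%) and 427 of 1386 in SC (30.8%). The level there was 168 CPM (154 to 183) in DO and 187 CPM (170 to 206) in SC, with Tpm1 in 176 of 413 DO cells and 126 of 305 SC cells. After thinning, the shares were 92 of 381 DO cells (24.1%) and 72 of 276 SC cells (26.1%). The ratio of 0.90 (0.79 to 1.02) passed no rule. The B gate gave Tpm1 at 12.4 CPM in DO and 13.4 CPM in SC. Its median depth was 3412.5 UMIs in DO and 2866 UMIs in SC, against 4080 and 3979 UMIs in the erythroid gate. Mural cells had Tpm1 at 745 CPM (509 to 1051) in DO and 485 CPM (265 to 814) in SC. Of the 32 DO mural counts, 19 lay in 1 mixed cell.

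In the fibroblast gate Tpm1 had 272 counts in DO and 378 in SC, or 348 CPM (307 to 391) in DO and 1650 CPM (1487 to 1824) in SC, and it was called 4.75-fold lower in DO (4.05 to 5.57). A single SC cell held 284 of the 378 counts. That cell had 34339 UMIs and carried 6 fibroblast, 5 osteoblast and 3 mural markers, and it also held 27 of the 54 Tpm2 counts and 36 of the 78 Cald1 counts of the SC gate. Without the highest cell of each library the log2 ratio was -0.56 and Tpm1 was not called. Without mixed cells it had 173 counts in DO and 45 in SC, with a log2 ratio of 0.02. Tpm1 was present in 49 of 60 DO cells and 16 of 23 SC cells, and after thinning in 22 of 58 DO cells (37.9%) and 8 of 22 SC cells (36.4%). With cells thinned to 4000 UMIs Tpm1 was called lower, at a log2 ratio of -0.69, and at 2000 UMIs the log2 ratio was -0.51 and it was not called.

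Osteoblast cells also carried Tpm1, with 29 counts in DO and 120 in SC, or 194 CPM (130 to 279) in DO and 301 CPM (250 to 360) in SC. It was called lower in DO, by 1.55-fold (1.03 to 2.41). In the same gate Tpm2 was called higher in DO on 8 counts against 6, at 53.6 CPM (23.2 to 106) in DO and 15.1 CPM (5.53 to 32.8) in SC, a ratio of 3.56 (1.08 to 12.4). Each was 1 of the 5 genes compared there, against 4.95% of 4285 genes called higher and 12.2% called lower. The median log2 ratio in this gate was 0.23 for the 5 genes and -0.30 for all genes compared. Without the highest cell of each library Tpm1 was no longer called, and Tpm2 fell under the 10 counts needed and was not compared. Mixed cells were 4 of the 12 DO cells and 15 of the 23 SC cells of this gate, and the median depth was 8369 UMIs in DO and 15044 UMIs in SC.

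Tpm2 and Cald1 were held more evenly within the mural gate than the other genes, being present in 7 of 7 DO cells and 6 of 6 SC cells each. Cald1 was also present in 44 of 60 DO and 13 of 23 SC fibroblast cells, and in 15 of 18 DO and 11 of 13 SC megakaryocytes. Tpm2 was at 512 CPM (321 to 775) in DO mural cells and 623 CPM (369 to 985) in SC mural cells. Cald1 was at 628 CPM (414 to 914) in DO mural cells and 935 CPM (616 to 1361) in SC mural cells. Neither ratio passed the rule, at 0.82 (0.42 to 1.62) for Tpm2 and 0.67 (0.38 to 1.19) for Cald1. In the fibroblast gate Tpm2 was at 184 CPM (155 to 217) in DO and 236 CPM (177 to 307) in SC, and Cald1 at 245 CPM (212 to 283) in DO and 340 CPM (269 to 425) in SC. The Cald1 interval lay below 1 (ratio 0.72, 0.55 to 0.95) but the change was under 1.5-fold, and without the highest cell of each library its log2 ratio was 0.06.

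Outside these gates Tpm2 and Cald1 were highest in megakaryocytes, in which Tpm2 was at 236 CPM in DO and 310 CPM in SC, and Cald1 at 471 CPM in DO and 554 CPM in SC. Endothelial cells held Cald1 at 67.8 CPM (45.4 to 97.4) in DO and 72.7 CPM (44.4 to 112) in SC, and Tpm2 at 3 counts in each library. Erythroid cells, which were rich in Tpm1, had 1 Tpm2 count in DO and 2 in SC.

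Flna and Vcl, the linker genes, were broadly present. Flna was highest in megakaryocytes, at 1590 CPM (1470 to 1717) in DO and 1685 CPM (1520 to 1863) in SC. The neutrophil gate followed at 875 CPM (855 to 896) in DO and 867 CPM (836 to 899) in SC, then the monocyte gate at 713 CPM in DO and 662 CPM in SC. Mural cells were at 442 CPM (266 to 691) in DO and 450 CPM (240 to 770) in SC, and endothelial cells at 208 CPM (167 to 256) in DO and 211 CPM (160 to 273) in SC. Osteoblast cells were at 73.7 CPM (36.8 to 132) in DO and 62.8 CPM (40.6 to 92.7) in SC, and erythroid cells at 41.9 CPM in DO and 41.6 CPM in SC. In the fibroblast gate Flna had 268 counts in DO and 57 in SC, or 342 CPM (303 to 386) in DO and 249 CPM (188 to 322) in SC. The ratio of 1.38 (1.03 to 1.87) was under 1.5, and it passed the rule when the gate asked for 4 markers, when a marker needed 2 UMIs and when the highest cell of each library was left out.

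Vcl was likewise highest in megakaryocytes, at 574 CPM (503 to 653) in DO and 896 CPM (776 to 1028) in SC, and was called 1.56-fold lower in DO (1.29 to 1.89). Tpm1 was 1.66-fold lower there (1.30 to 2.11). Myl9, Tpm1 and Vcl were the 3 genes of 6 called lower in DO megakaryocytes, against 7.9% of 5684 genes. A single cell of 46729 UMIs held 135 of the 309 Myl9, 84 of the 202 Vcl and 45 of the 134 Tpm1 counts of the SC gate. With every cell thinned to 2000 UMIs, the log2 ratio was -0.21 for Myl9, 0.090 for Tpm1 and 0.61 for Vcl, and none of the 3 was called. Mural cells had Vcl at 233 CPM (112 to 428) in DO and 139 CPM (37.7 to 355) in SC. Osteoblast cells had it at 13.4 CPM in DO and 22.6 CPM in SC. Vcl was at 180 CPM (152 to 213) in DO fibroblast cells and 214 CPM (158 to 283) in SC fibroblast cells. It was at 81.8 CPM in DO endothelial cells and 102 CPM in SC endothelial cells. Neutrophils had 77.5 CPM (71.4 to 83.9) in DO and 79.4 CPM (70.2 to 89.4) in SC, and erythroid cells had 54.8 CPM in DO and 58.7 CPM in SC.

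Over all cells without gates, 5 of the 7 genes were called higher in DO, against 6.84% of 14949 genes. Acta2 was at 5.0 CPM in DO and 1.12 CPM in SC (4.47-fold, 3.05 to 6.72). Tpm2 was 1.67-fold higher (1.38 to 2.02), Cald1 1.61-fold (1.39 to 1.85), Flna 1.54-fold (1.497 to 1.58) and Vcl 1.55-fold (1.43 to 1.67). Myl9 and Tpm1 were not called. With cells thinned to 2000 or 4000 UMIs, Tpm2 was no longer called. Without mixed cells, 2 genes were called higher (Acta2, log2 ratio 1.73, and Flna, 0.62) and 1 lower (Myl9, -0.79). No share over all genes was taken without mixed cells. With all cells the median log2 ratio was 0.63 for the 7 genes and -0.17 for all genes compared. The libraries also differed in cell make-up, whose part in these ratios was not tested. For Flna the ratio was 1.01 (0.97 to 1.05) within the neutrophil gate, 1.08 within the monocyte gate and 1.14 within the B gate, while neutrophils made up 26.1% of DO cells and 11.4% of SC cells. For Vcl the ratio was 0.98 (0.84 to 1.13) within the neutrophil gate, 1.01 within the monocyte gate and 1.18 (0.83 to 1.68) within the B gate. For Tpm2 it was 0.82 in the mural, 0.78 in the fibroblast and 0.76 in the megakaryocyte gate, none called. For Cald1 it was 0.67, 0.72 and 0.85 in the same gates, none called. Cald1 was also at 1.33 in the osteoblast and 1.58 in the erythroid gate, neither called. Tpm2 was called higher in the osteoblast and neutrophil gates. Cald1 was called higher in the neutrophil gate and lower in the monocyte gate. In the cells that met no gate, Flna was at 438 CPM (423 to 453) in DO and 341 CPM (327 to 356) in SC, and Vcl at 58.9 CPM (53.7 to 64.6) in DO and 39.5 CPM (34.7 to 44.8) in SC. The rule was not applied to these ungated cells alone and no share over all genes was taken for them. Their median depth was 3510 UMIs in DO and 2249 UMIs in SC.

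**Figure D4:**
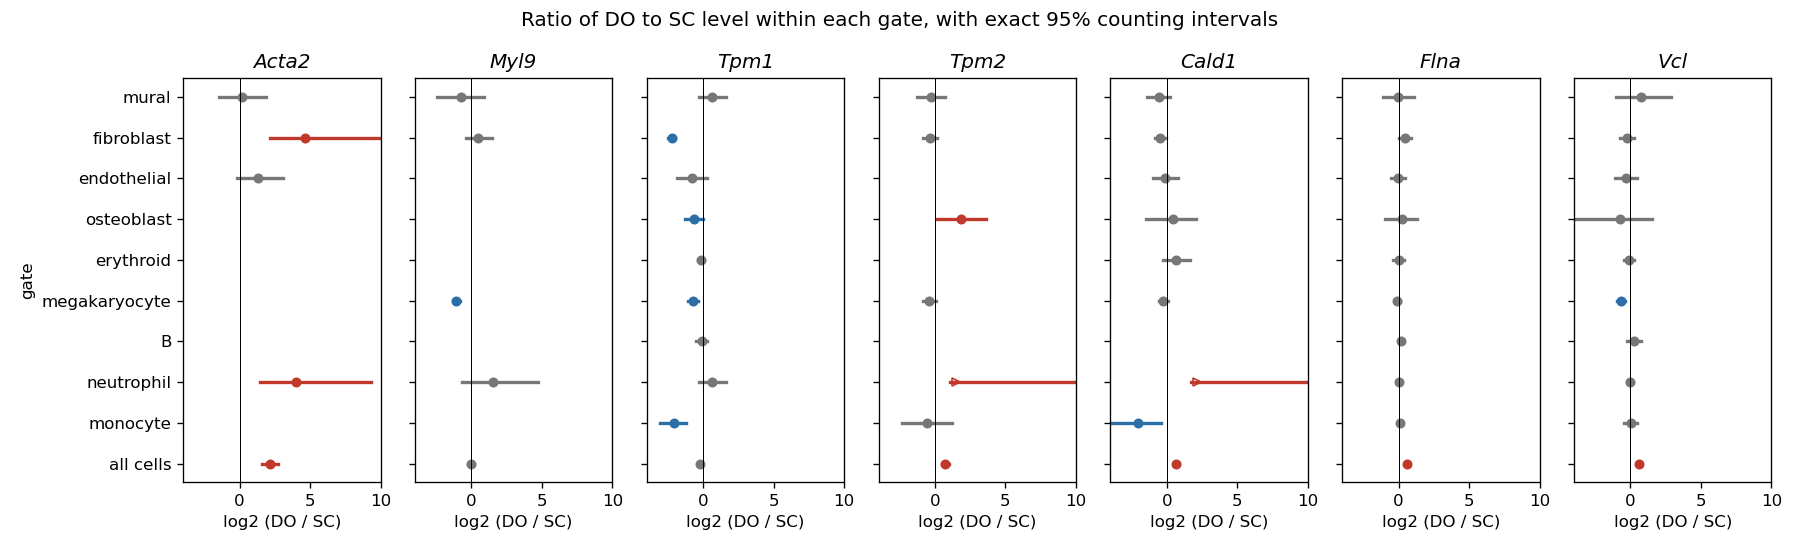
Log2 ratio of the DO level over the SC level for each gene within each gate and over all cells. Bars are exact 95% counting intervals cut at the axis limits. Red marks genes called higher and blue genes called lower in DO, and grey marks genes not called. Open triangles stand at the ratio with 3 counts in place of 0. The Flna ratio is 1.38 in the fibroblast gate and 1.17 in the osteoblast gate, neither called, and Flna is called higher at 1.54-fold over all cells.

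Several gates gave no call. None of the 7 genes was called in either direction in the mural gate, against 16.7% of 1274 genes, and the counts of 4 to 32 per gene and library there leave wide intervals. None of 5 genes compared was called in the endothelial gate, against 11.1% of 6669 genes, and none of 4 in the erythroid gate, against 8.75% of 9410 genes. In the B gate none of 3 genes was called, against 5.58% of 12285 genes. Among the other cells together, Acta2, Flna and Vcl, 3 of 7, were called higher in DO, against 6.55% of 14312 genes. Acta2 had 39 counts there in DO and 21 in SC, and its log2 ratio was 0.88, against -1.11 without the highest cell of each library and -1.74 without mixed cells. Monocyte cells had Tpm1 and Cald1, 2 of 5 genes, called lower in DO, against 7.9% of 9499 genes. A mixed SC cell held 30 of the 54 Tpm1 counts and 8 of the 15 Cald1 counts there, and without mixed cells the log2 ratio of Tpm1 was 1.74 on 11 counts in DO and 3 in SC, with no call.

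Within a library, the gates were also set against fibroblasts. Of the 7 genes, 3 were called higher in DO mural cells than in DO fibroblast cells, against 7.5% of 6468 genes: Tpm1 (2.14-fold, 1.44 to 3.10), Tpm2 (2.78-fold, 1.69 to 4.38) and Cald1 (2.56-fold, 1.65 to 3.84). In SC, Tpm2 (2.65-fold, 1.46 to 4.58), Cald1 (2.75-fold, 1.70 to 4.30) and Myl9 (4.54-fold, 1.65 to 11.6) were called higher in mural cells, 3 of 6 against 11.8% of 3547 genes, and Tpm1 was called lower, against 6.79%. Without mixed cells, an alternative chosen after seeing the data, none of the genes was called in DO, where 3 mural cells were left. The 3 higher calls in SC held without mixed cells, though that of Myl9 ended without the highest cell of each gate, and Tpm1 in SC turned to a log2 ratio of 0.54. Acta2 was 2.09-fold higher in DO mural than in DO fibroblast cells with an interval of 0.97 to 4.04, and was not called. Its log2 ratio of 1.07 turned to -1.47 without the highest cell of each gate and to -1.61 without mixed cells. Each of these rests on 1 mural count. In SC the counts of 6 in mural and 1 in fibroblast cells gave a ratio of 47.6 (5.78 to 2190), on too few counts to be called.

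Endothelial cells were lower than fibroblast cells for 7 of 7 genes in DO, against 14.4% of 7880 genes, and for 5 of 6 in SC, against 12% of 5851 genes, with Flna the exception in SC. Osteoblast cells were lower for 7 of 7 in DO (25.9% of 6626 genes) and 6 of 6 in SC (23.8% of 5253 genes). Without mixed cells the osteoblast calls of Tpm1 ended in both libraries, as did that of Myl9 in DO. Myl9 in SC then had 5 fibroblast counts. It fell under the 10 counts needed and was not compared in osteoblast, endothelial or erythroid cells. Erythroid cells were lower for 7 of 7 in DO (29% of 9798 genes) and 6 of 6 in SC (20.7% of 8715 genes), by the least for Tpm1 in DO (2.07-fold, 1.78 to 2.40). Megakaryocytes, a contrast added after their values were seen, were higher than fibroblast cells for 4 of 7 genes in DO (27.7% of 7649 genes), which were Myl9 (7.59-fold, 5.79 to 10.1), Flna (4.64-fold), Vcl (3.19-fold) and Cald1 (1.92-fold). The same 4 genes were called higher in SC megakaryocytes (27.5% of 5350 genes), led by Myl9 (22.4-fold, 13.2 to 41.5). Acta2 had 0 counts in DO megakaryocytes and was at least 15.1-fold lower there, against 24.3% of genes called lower in DO. Tpm1 was 2.78-fold lower in SC megakaryocytes, against 19.7% of genes, but this direction did not hold. Its log2 ratio was -1.47, against 0.045 without the highest cell of each gate and 1.74 without mixed cells, alternatives chosen after seeing the data.

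Single cells of the stromal gates often held several of the genes. In the mural gate 5 of 7 DO cells and 5 of 6 SC cells held at least 4 of the 7 genes, and 2 DO cells and 2 SC cells held all 7. In the fibroblast gate 46 of 60 DO cells (76.7%) and 11 of 23 SC cells (47.8%) held at least 4, and 8 DO cells and 1 SC cell held all 7. At 2000 UMIs per cell these shares were 9 of 58 DO cells (15.5%) and 2 of 22 SC cells (9.09%). Megakaryocytes kept the largest share at equal depth, with 10 of 18 DO cells and 6 of 13 SC cells. Endothelial cells with at least 4 of the genes were 3 of 36 in DO and 2 of 24 in SC.

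A wider list of 40 contractile, adhesion and actin-regulating genes was read in the same way, and 39 of them were listed. Of 28 compared in the fibroblast gate, 1 was called higher and 1 lower in DO, against 7.72% of 7011 genes called higher and 7.03% called lower. The median log2 ratio of the 28 genes was 0.35, against 0.10 for all genes. Csrp2, a LIM protein of smooth muscle and activated stromal cells, was higher, with 195 counts in DO and 11 in SC, or 249 CPM in DO and 48.0 CPM in SC (5.19-fold, 2.84 to 10.6), in 37 DO cells and 8 SC cells. Mylk, the kinase that phosphorylates myosin light chains, was lower, with 28 counts in DO and 59 in SC (7.20-fold, 4.52 to 11.7), 50.8% of the SC counts being in 1 cell. Tagln, the smooth muscle protein transgelin, had 165 counts in DO and 36 in SC and a ratio of 1.34 (0.93 to 1.98), which was not called; it is named after its value was seen. In the mural gate 1 of 15 genes was called, the integrin subunit Itgb1, at 2165 CPM in DO and 1420 CPM in SC (1.52-fold, 1.04 to 2.26), against 7.06% of 1274 genes called higher. Of the wider list, 1 of 24 genes was called higher and 1 lower in endothelial cells, against 5.01% of 6669 genes called higher and 6.09% called lower. In erythroid cells 0 of 24 were called higher and 1 lower, against 5.22% of 9410 genes called lower. These counts are near the shares over all genes.

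Genes with like patterns were sought over 18 profiles, the 9 gates with at least 10 cells in each of 2 libraries, among 6213 genes that reached 50 CPM in at least 1 profile. Mural cells, being fewer, did not enter, and the profiles of a library share its depth and its free RNA, so the Pearson r on log2(CPM + 10) is a description. Acta2 was closest to Eln, which encodes elastin (0.92), Igf2 (0.89) and Cav1, the main protein of caveolae (0.85). These r values rest on few profiles. Acta2 was at 111 CPM in DO fibroblast cells and 44.4 CPM in DO endothelial cells, with 17 of 19 endothelial counts in 1 cell. In the other profiles it was at most 18.2 CPM. Myl9 was closest to Fhl1 (0.97), Ly6g6d (0.96) and Syt5 (0.94), and Tpm1 to Sphk1 (0.95), Slc12a4 (0.91) and Epdr1 (0.91). Tpm2 was closest to Cald1 (0.94), Nnat (0.94) and Camk1 (0.93), and Cald1 to Mylk (0.95), Tpm2 (0.94) and Tsc22d1 (0.91). Flna was closest to Zyx, the focal adhesion protein zyxin (0.95), Cotl1 (0.94) and Plek (0.94), and Vcl to Ctdspl (0.92), Pttg1ip (0.91) and Itm2c (0.88). Among the 7 genes themselves r was highest for Tpm2 with Cald1 (0.94) and Myl9 with Tpm2 (0.87) and lowest for Tpm1 with Flna (-0.15).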

How the data were processed

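Single cells of 1 DO and 1 SC library were trapped on BD Rhapsody cartridges, per the labels' protocols. Each deposited table holds, for every cell and gene, the count of molecules that the authors obtained from the BD WTA Rhapsody Analysis Pipeline (version 1.5.1, per the file headers); the submitters' processing notes name Rnor_6.0 and Seurat 3.6. Cells with at least 500 UMIs, 200 genes and under 25% mitochondrial UMIs were kept of 4889 DO and 5351 SC cells. The shallowest deposited cell had 125 UMIs in DO and 920 in SC. A cell went to the class of which it held the largest share of listed markers (79 of 86 listed), with at least 3 at 1 UMI or more. Doublets were not called and may be present. Counts were summed per gate and scaled to CPM, with exact 95% Poisson intervals for levels and conditional binomial intervals for ratios. For log2 ratios against 0 counts, 3 counts stood in place of 0. Thinning used 2000 or 4000 UMIs. The 7 genes were read in every gate. Genes of the wider list were named where called in the mural or fibroblast gate (up to 6 each), with the 3 most like genes per gene. The genes and lists were chosen with earlier results of these data known. The comparison of tropomyosin proteins was not analysed here. Python 3.11.15, numpy 2.4.6, scipy 1.17.1, pandas 2.3.3 and matplotlib 3.10.9 were used, and the interval rule was tested on simulated data.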

Additional observations from a re-analysis of the deposited data

Results flagged for a closer look

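Cald1 was called in opposite directions in leukocyte gates. In neutrophil cells it had 30 counts in DO and 0 in SC, a log2 ratio of 2.13 with 3 counts in place of 0. In monocyte cells it had 4 counts in DO and 15 in SC, a log2 ratio of -2.03. The difference between these gates was not tested. A single mixed DO cell held 22 of the 30 neutrophil counts, and a single mixed SC cell held 8 of the 15 monocyte counts. Without the highest cell of each library, 8 counts in DO and 0 in SC were left in neutrophil cells. Monocyte cells then had 0 in DO and 7 in SC. Both gates were under the 10 counts needed, so Cald1 was not compared.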

How the results depend on the processing

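No paired analysis was possible because each group has 1 library and the labels carry no replicate numbers. For the same reason no replicate could be left out. Over all cells Acta2 and Flna, and among other cells Flna and Vcl, kept their calls in 11 of 11 settings at a fold of 1.5, and Acta2 in fibroblast cells in 10 of 11 (log2 1.61 to 4.95). The other called genes kept the call in 4 to 10 settings, and a call was also lost where under 10 counts were left. With mixed cells left out, the log2 ratio turned to 0.016 for Tpm1 in fibroblast cells, to 1.74 for Tpm1 in monocyte cells and to -1.74 for Acta2 in other cells, which was -1.11 without the highest cell. At 2000 UMIs Myl9 was at -0.21 and no longer called, and Tpm1 (0.090) and Vcl (0.61) turned in megakaryocyte cells. The causes were not tested. For mural against fibroblast cells, with alternatives chosen after seeing the data, Tpm1 turned to -0.072 in DO and 0.54 in SC without mixed cells; 0 genes were then higher in DO, and 0 lower in SC, as without the highest cell. For SC megakaryocyte against fibroblast cells Tpm1 turned to 1.74 without mixed cells and to 0.045 without the highest cell, with 0 genes lower in both. The counts of called genes under changed settings have no share over all genes beside them, because only the 7 genes were read there. Without mixed cells the genes called lower were 1 in mural, 2 in other and 1 in all cells, and those called higher 1 in endothelial and 2 in all cells. The mural gate then held 3 DO cells. In fibroblast cells 2 were higher with 4 markers, with markers at 2 UMIs or without the highest cell, and 0 at 2000 UMIs; 0 were lower without the highest cell or at 2000 UMIs, and 2 at 4000 UMIs. In endothelial cells 1 was higher with markers at 2 UMIs or at 4000 UMIs, and in erythroid cells 1 with 4 markers or with markers at 2 UMIs. In osteoblast cells 0 were higher with 4 markers, markers at 2 UMIs, mixed cells out, the highest cell out, at 2000 or 4000 UMIs, at 30 counts, or, a setting added after seeing the data, without cells holding 2 megakaryocyte markers. There 0 were lower with 2 markers, all deposited cells, mixed cells out, the highest cell out, at 2000 or 4000 UMIs, or at a fold of 2. At a fold of 2, 0 genes were higher in other cells and 1 in all cells. Few stromal cells limit every gate but the leukocyte and erythroid ones.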

Other observations

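The osteoblast gate had 6 genes of the wider list called, and they are named here after their values were seen. Of 21 genes compared, 5 were lower in DO, against 12.2% of 4285 genes, and 1 was higher, against 4.95%. The median log2 ratio was -0.62 for the 21 genes and -0.30 for all genes compared in this gate. The integrin subunit Itgb1 had 44 counts in DO and 299 in SC, or 295 CPM in DO and 751 CPM in SC (2.55-fold lower, 1.85 to 3.58). Actn4, an actin cross-linker, was 2.62-fold lower (1.55 to 4.75), talin (Tln1) 2.44-fold (1.43 to 4.42), paxillin (Pxn) 3.09-fold (1.10 to 12.01) and beta-actin (Actb) 1.54-fold (1.15 to 2.09). Actn1, another alpha-actinin, was 2.31-fold higher in DO (1.31 to 4.05), with 57.7% of its 26 DO counts in 1 cell. The gate held 12 DO cells at a median of 8369 UMIs and 23 SC cells at a median of 15044 UMIs, and 4 DO cells and 15 SC cells were mixed; the part of depth and of mixed cells was not tested.

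In endothelial cells Actn1 had 115 counts in DO and 41 in SC, or 269 CPM in DO and 149 CPM in SC (1.80-fold higher, 1.25 to 2.64), and the calponin Cnn3 had 80 counts in DO and 88 in SC, or 187 CPM in DO and 320 CPM in SC (1.71-fold lower, 1.25 to 2.34). These genes were also named after their values were seen, and they were the 2 called of 24 compared, against 11.1% of 6669 genes called in either direction, so the count is near that share.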
